A study of Mus musculus with 35 samples.

Results

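The shift from acute injury to established epilepsy was read in the m6A libraries of mice given kainic acid into the amygdala (IAKA), by setting libraries made 2 weeks after the injection against libraries made 24 hours after it. Of the 35 libraries of the series 11 belong to this comparison: all those whose labels give an m6A immunoprecipitation and IAKA, 5 at 24 hours (mice 67, 98, 97, 79 and 8) and 6 at 2 weeks (mice 42, 5, 6, 21, 7 and 9). Each library came from the hippocampus of a young adult male C57BL/6JOlaHsd mouse. All IAKA mice went through status epilepticus (SE), were given lorazepam to limit it, and at 2 weeks belong to the stage at which spontaneous seizures are present in this model. The 8 m6A libraries of mice given PBS into the amygdala (3 at 24 hours, 5 at 2 weeks) and the 10 input libraries (total RNA) of IAKA mice (4 and 6) were the references. Different mice were killed at each time, so no mouse was followed.

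m6A is a methyl mark on adenosines of messenger RNA. A nuclear writer complex built on METTL3 and METTL14 sets it, the demethylases FTO and ALKBH5 can remove it, and readers such as the YTH proteins bind it and steer splicing, export, translation and decay. In an m6A library, RNA is first pulled down with an antibody against the mark and then sequenced, so the count of a gene depends on the amount of its RNA as well as on its methylation. The hippocampus shortly after SE is known for a burst of immediate early genes, cytokines, chemokines and reactive glia. The chronic stage is known for a lasting gliosis and altered inhibition and excitation.

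Depth and the prefix of the column names differed within the comparison. Total counts ran from 1652933 to 31989906 at 24 hours and from 15291875 to 34564536 at 2 weeks, with mice 67 and 98 lowest (1979606 and 1652933). A count of 0 allows up to 3 counts, which is 1.32 and 1.78 counts per 1000000 counts of the TMM-scaled library (CPM) in those mice and at most 0.284 CPM in the other 9, and this limit covers counting error only. The column names carry a prefix (3, 4 or 5) that is taken here as a library set. What the prefix stands for is not stated in the labels. Set 3 holds mice 67, 98 and 8 at 24 hours and mice 42, 5 and 6 at 2 weeks, set 4 holds mice 97 and 79 at 24 hours, and set 5 holds mice 21, 7 and 9 at 2 weeks. Outside set 3, set and time point cannot be told apart. Mice 8 (24 hours) and 6 (2 weeks) stood apart, with 16.4% and 17.5% of their counts on mitochondrial genes against 1.86% to 11.1% in the other 9.

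On principal components of the 500 most variable genes, 50.4% of the variance lay on the first component, which did not separate the time points (exact permutation test over 462 groupings, two-sided, P = 0.459, where 0.00216 is the smallest possible). Mice 67 and 98 lay at one end and mouse 8 at the other, all of 24 hours. Without mouse 8 the same exact test gave P = 0.0238. On the second component (13.3%) all 5 libraries of 24 hours lay above all 6 of 2 weeks, at 4.09 to 23.9 against -20.2 to 2.87, a component chosen after the scores were seen.

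**Figure D1:**
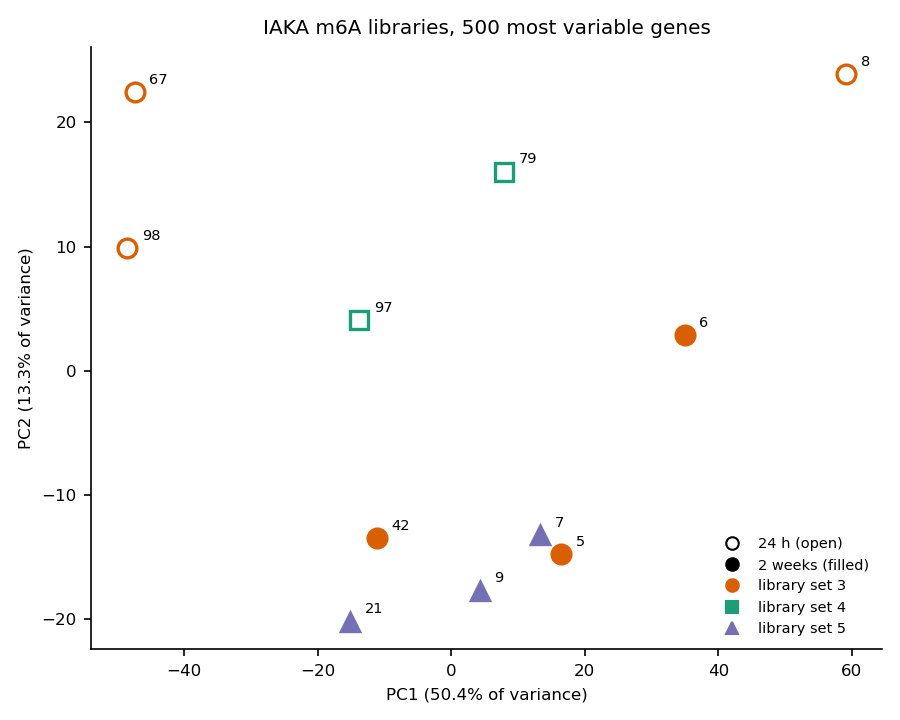
Scores of the 11 IAKA m6A libraries on the first (x axis) and second (y axis) principal component of log2 CPM, without units, with mouse numbers beside the points. Open symbols are 24 hours and filled symbols 2 weeks, with circles for library set 3, squares for set 4 and triangles for set 5. Mice 67 and 98 lie at -47.4 and -48.5 on the first component and mouse 8 at 59.1.

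Of 16256 genes tested with edgeR's quasi-likelihood test, 79 differed between the time points at an adjusted P under 0.05. Lower at 2 weeks were 47 genes, 0.289% of those tested, with log2 fold changes (2 weeks over 24 hours) from -5.59 to -1.32 and a median of -2.49. Higher at 2 weeks were 32 genes, 0.197% of those tested. Among them the predicted gene Gm5940, named after its value was seen, had no count in any library of 24 hours and was at least 58.7-fold higher at 2 weeks (against 3 counts over the group). The other 31 ranged from 0.92 to 2.09. The median over all genes tested was -0.11. Libraries of the time points did not overlap in CPM for 37 of the 47 lower and 26 of the 32 higher genes, where 0.91% and 1.16% of all genes tested were free of overlap in those directions.

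The number of genes that passed depended on the libraries and on the library set. Without mice 8 and 6, a fit chosen after seeing the data, it was 161 (72 higher, 89 lower), with 74 of the 79 among them. With the library set as a block it was 4, all lower (Ccl2, Ccl12, Lcn2 and Tm4sf1). Within set 3, 3 libraries against 3, edgeR called 0 of 16365 genes, and 480 of the 16365 had an unadjusted P under 0.05. The 47 lower genes had a median log2 fold change of -2.09 there and the 32 higher genes 1.09. These genes were picked in a fit that holds the same 6 libraries. Leaving out 1 library at a time, the count was 45 without mouse 67, 104 without mouse 98, 20 without mouse 97, 16 without mouse 79, 238 without mouse 8, 496 without mouse 42, 20 without mouse 5, 33 without mouse 6, 23 without mouse 21, 24 without mouse 7 and 21 without mouse 9. In all 11 of these fits 14 genes passed, among them Ccl2, Ccl12, Msr1, Tnn, Socs3, Plaur, Tm4sf1, Gbp2, Layn, Mrps6, P2ry12, Tmem47 and Gm5940.

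PBS mice show how far libraries of sets 4 and 5 differed without IAKA, and none of their libraries was of set 3. Their 8 m6A libraries split into 4 of set 4 and 4 of set 5. Set 4 held mice 71 and 73 at 24 hours and mice 50 and 78 at 2 weeks. Set 5 held mouse 1 at 24 hours and mice 2, 3 and 4 at 2 weeks, so set and time were partly mixed here too. Of the genes tested here 20.2% had all 4 libraries of set 5 above all 4 of set 4 and 20.4% had them all below. Of the 32 genes higher at 2 weeks after IAKA, 20 were in the first class and 0 in the second. Of the 47 lower genes, 0 were in the first class and 10 in the second. For genes of these classes that are named below, PBS levels are given by set, and the part of the library set in each was not tested beyond the block and set 3 fits. Among the genes that passed in all 11 leave-one-out fits, Layn was in the class that was lower in set 5, at 5.67 to 8.05 CPM in set 4 and 2.31 to 4.02 CPM in set 5.

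The largest falls among the named genes were in chemokines that attract monocytes. Ccl2 and Ccl12, ligands of the receptor CCR2, fell from clear signal in every mouse at 24 hours to little at 2 weeks. For Ccl2, CPM at 24 hours in mice 67, 98, 97, 79 and 8 (the order used throughout) were 20.2, 5.34, 8.14, 18.1 and 13.5, and the lowest, median and highest CPM at 2 weeks were 0.123, 0.259 and 0.468 (-5.59 ± 0.44, adjusted P = 6e-05, where the first value is the log2 fold change with its SE). Within set 3 the log2 fold change was -5.36 ± 0.70. Ccl12 had 27.2, 13.7, 25.3, 54.4 and 20.6 CPM at 24 hours against 0.541, 0.811 and 1.54 CPM at 2 weeks (-4.92 ± 0.40, adjusted P = 6e-05). Neither gene's groups overlapped, which the rule for the largest falls required. All 8 PBS libraries lay below every IAKA library of 24 hours, at up to 1.35 CPM for Ccl2 and 3.30 CPM for Ccl12. IAKA against PBS at 24 hours passed for Ccl2 (4.07 ± 0.78, adjusted P = 0.0335) and not for Ccl12 (3.53 ± 0.78, adjusted P = 0.0752, edgeR). Cxcl10, an interferon-induced chemokine that draws T cells, had 5.71, 2.97, 7.59, 40.8 and 12.9 CPM at 24 hours against 0.129, 0.665 and 1.83 CPM at 2 weeks (-4.08 ± 0.72, adjusted P = 0.0241). Its call was lost without mouse 97, 79, 5, 6, 21, 7 or 9 (adjusted P up to 0.0860). Of 16 chemokines and cytokines tested (of 21 listed), these 3 fell and none rose, and the list median was -1.61. Ccl3 and Ccl4, of the same chemokine family, did not pass (-2.07 ± 0.66, adjusted P = 0.179, and -2.56 ± 0.70, adjusted P = 0.121).

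Several of the lower genes are textbook targets of STAT, AP-1 or interferon signalling, so the promoters of 4 of them are shown here with matches to 3 motifs in capitals. The sequences are RefSeq windows on GRCm38.p6, from 250 bases before to 50 after the start of the gene, 5′ to 3′ on the strand of the gene. The motifs, searched on both strands, were TTCNNNGAA (STAT), TGANTCA (AP-1) and TTTC, NN and TTTC in a row (interferon-stimulated response element). In Ifitm3 the STAT match overlaps a response element match.
Gbp2, chr3:142620413-142620712 (plus strand): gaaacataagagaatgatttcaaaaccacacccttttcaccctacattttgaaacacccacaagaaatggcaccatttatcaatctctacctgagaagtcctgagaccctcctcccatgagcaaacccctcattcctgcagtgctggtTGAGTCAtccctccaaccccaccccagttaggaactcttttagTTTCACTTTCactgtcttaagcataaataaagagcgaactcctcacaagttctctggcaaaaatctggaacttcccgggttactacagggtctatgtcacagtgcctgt
Cxcl10, chr5:92348840-92349139 (minus strand): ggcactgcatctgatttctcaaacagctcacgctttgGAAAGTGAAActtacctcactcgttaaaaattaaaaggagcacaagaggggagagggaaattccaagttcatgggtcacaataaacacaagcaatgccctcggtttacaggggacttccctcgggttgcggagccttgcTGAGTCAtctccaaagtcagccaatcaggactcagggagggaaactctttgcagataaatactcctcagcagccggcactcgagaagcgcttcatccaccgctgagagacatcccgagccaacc
Socs3, chr11:117969317-117969616 (minus strand): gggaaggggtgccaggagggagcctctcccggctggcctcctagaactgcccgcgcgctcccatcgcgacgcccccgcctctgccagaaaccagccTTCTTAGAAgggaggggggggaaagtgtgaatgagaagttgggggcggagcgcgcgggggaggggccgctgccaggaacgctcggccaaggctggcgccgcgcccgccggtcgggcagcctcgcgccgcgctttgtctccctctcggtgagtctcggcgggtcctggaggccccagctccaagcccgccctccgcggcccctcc
Ifitm3, chr7:141010695-141010994 (minus strand): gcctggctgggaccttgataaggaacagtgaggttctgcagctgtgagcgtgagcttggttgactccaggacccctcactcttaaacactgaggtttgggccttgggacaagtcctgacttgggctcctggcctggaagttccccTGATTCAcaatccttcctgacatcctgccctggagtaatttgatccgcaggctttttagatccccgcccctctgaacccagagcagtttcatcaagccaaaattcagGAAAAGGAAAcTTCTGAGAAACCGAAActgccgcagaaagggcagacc
Gbp2 and Cxcl10 each hold an AP-1 and a response element match, Socs3 a STAT match, and Ifitm3 all 3 kinds. Of the 47 lower genes 33 had a window, and the STAT motif was in 4 of them, the AP-1 motif in 7 and the response element in 6. Of the genes tested 11511 had a window, and 8.44%, 6.69% and 3.75% of them held these motifs. Counted per window instead of per gene, the shares over all 32851 windows were 8.30%, 7.81% and 3.44%. Of the 32 higher genes 22 had a window, and each motif was in 1 of them. A match describes letters in a window and not a bound site.

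Markers of cells that could carry the chemokine transcripts were read beside them. Of 12 markers of infiltrating leukocytes tested (of 17), none passed (list median -0.78, and 0.22 without mice 8 and 6), and their summed CPM spanned 62.8 to 312 at 24 hours and 55.9 to 138 at 2 weeks. Their part in the result was not tested. In bulk tissue, fewer cells of a type and less RNA per cell cannot be told apart. Msr1, a scavenger receptor of macrophages, had 13.6, 5.93, 17.2, 12.9 and 31.9 CPM at 24 hours against 0.431, 1.30 and 1.61 CPM at 2 weeks (-3.82 ± 0.41, adjusted P = 0.00109). Arg1, the arginase of alternatively activated macrophages, had 21.5, 1.78, 2.87, 0.683 and 3.78 CPM at 24 hours against 0.210, 0.326 and 0.468 CPM at 2 weeks (-4.13 ± 0.77, adjusted P = 0.0332). Mouse 67 was far above the other 4 for Arg1, and its call was lost without mouse 97, 5, 6, 21, 7 or 9 (adjusted P up to 0.112). Slfn4, a Schlafen gene of myeloid cells, had 12.7, 2.37, 2.81, 8.13 and 6.05 CPM at 24 hours against 0.246, 0.728 and 0.972 CPM at 2 weeks (-3.25 ± 0.49, adjusted P = 0.0124), and lost its call without mouse 79 (adjusted P up to 0.0514). A PBS library of 24 hours, of mouse 71, held 12.6 CPM of Slfn4, above 4 of the 5 IAKA libraries of 24 hours.

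**Figure D2:**
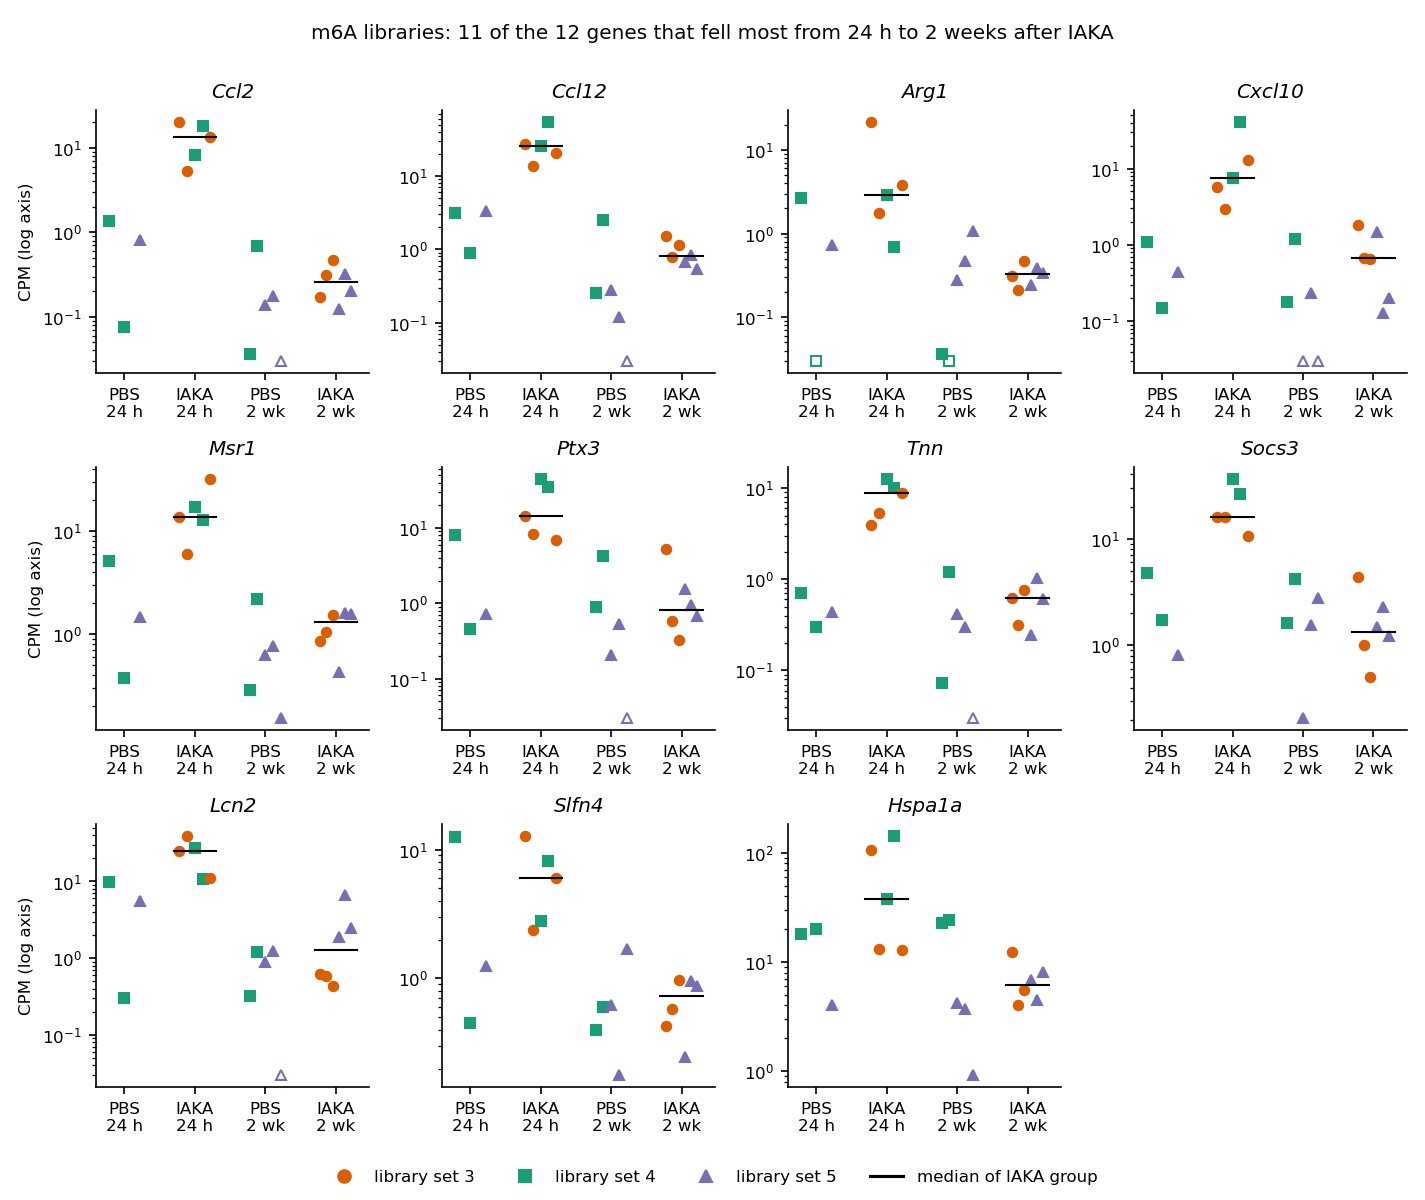
CPM (log y axis) of 11 of the 12 named lower genes with the largest fold changes, 1 panel per gene, in each m6A library by treatment and time. Circles are library set 3, squares set 4 and triangles set 5, lines are the medians of the IAKA groups, and open symbols drawn at 0.03 CPM are libraries with no count. In every panel all 5 IAKA libraries of 24 hours lie above all 6 of 2 weeks, because these genes were picked among those free of overlap.

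Genes of reactive astrocytes were lower at 2 weeks, but Gfap did not pass. Of 19 markers tested, 7 fell (Lcn2, Cxcl10, Timp1, Emp1, Tm4sf1, Clcf1 and Ptx3) and none rose, with a list median of -1.88 (-1.23 within set 3, -0.25 in PBS mice). The same 7 passed without mice 8 and 6, a fit chosen after seeing the data. With the library set as a block 2 passed (Lcn2 and Tm4sf1), and within set 3 0 passed. Tm4sf1, a membrane protein of the L6 family, had the smallest SE of the 7, with 54.9, 42.1, 52.7, 49.0 and 53.5 CPM at 24 hours against 8.24, 10.8 and 13.7 CPM at 2 weeks (-2.19 ± 0.19, adjusted P = 9.84e-05). Lcn2, a secreted carrier of iron-binding siderophores, had 25.1, 39.2, 27.1, 10.9 and 10.97 CPM at 24 hours against 0.432, 1.27 and 6.75 CPM at 2 weeks (-3.43 ± 0.68, adjusted P = 0.0445). Its 2-week libraries of set 3 held 0.432 to 0.628 CPM and those of set 5 1.91 to 6.75 CPM, and within set 3 the log2 fold change was -5.51 ± 0.63. The Lcn2 call was lost without mouse 67, 98, 97, 79, 5, 6, 21 or 9 (adjusted P up to 0.124), although it passed with the set as a block (adjusted P = 0.0253). Ptx3, a pentraxin of innate immunity, had 14.5, 8.31, 44.8, 34.6 and 7.00 CPM at 24 hours against 0.324, 0.820 and 5.20 CPM at 2 weeks (-3.81 ± 0.73, adjusted P = 0.0382), and lost its call without mouse 67, 97, 79, 5, 6, 21, 7 or 9 (adjusted P up to 0.115).

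The other reactive markers that passed were Timp1, Clcf1 and Emp1 (log2 values). Timp1, an inhibitor of matrix metalloproteinases, fell by 2.92 (SE 0.50, adjusted P = 0.0219). Clcf1, a cytokine of the IL-6 family, fell by 2.73 (SE 0.47, adjusted P = 0.0219), and Emp1, an epithelial membrane protein, fell by 1.88 (SE 0.31, adjusted P = 0.0206). In PBS mice Timp1 stood at 1.05 to 2.94 CPM in set 4 and 0.475 to 0.769 CPM in set 5, and Clcf1 at 1.80 to 2.68 CPM in set 4 and 0.485 to 0.923 CPM in set 5, so both were lower in all libraries of set 5. Timp1 lost its call without mouse 67, 97, 79, 5, 21, 7 or 9 (adjusted P up to 0.0767), Clcf1 without mouse 97, 79, 5, 21, 7 or 9 (adjusted P up to 0.0815) and Emp1 without mouse 79, 5, 6, 21, 7 or 9 (adjusted P up to 0.0743). Gfap, the intermediate filament that marks reactive astrocytes, had 1226 ± 665 CPM at 24 hours and 872 ± 817 CPM at 2 weeks (SD, n = 5 and 6 throughout; -0.50 ± 0.60, adjusted P = 0.690, edgeR). Vim, a further filament, had -1.13 ± 0.54, adjusted P = 0.345, and the protease inhibitor Serpina3n -1.95 ± 0.64, adjusted P = 0.190. Of 16 markers of homeostatic astrocytes none passed (median 0.23), and their summed CPM, 1459 to 4108 at 24 hours and 3278 to 6478 at 2 weeks, overlapped.

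Of 18 interferon-stimulated genes tested, 17 had a log2 fold change below 0, while 41.2% of all genes tested lay above 0. Of the 18, 4 fell (Rsad2, Ifitm3, Gbp2 and Irf9), 15 were lower at an unadjusted P under 0.05, where 7.52% of all genes were. Lower and free of overlap were 7, where 0.91% of all genes were. With the library set as a block, and within set 3, 0 passed. The list median was -1.68, with -1.12 without mouse 79 and -0.88 within set 3, which lacks that mouse. Gbp2, a guanylate-binding GTPase, had 18.5, 17.8, 24.0, 53.8 and 22.5 CPM at 24 hours against 5.18, 6.88 and 8.79 CPM at 2 weeks (-2.03 ± 0.31, adjusted P = 0.0124). Ifitm3, which blocks viral entry at membranes, had 17.1, 21.4, 15.3, 23.6 and 11.9 CPM at 24 hours against 2.505, 4.13 and 7.59 CPM at 2 weeks (-2.003 ± 0.31, adjusted P = 0.0124), and lost its call without mouse 79 (adjusted P up to 0.0514). Mouse 79 was the highest library for both. Rsad2, an antiviral enzyme, had 54.4 CPM in mouse 79 and 7.12 to 9.58 CPM in the other 4 at 24 hours, against 1.35, 2.83 and 4.41 CPM at 2 weeks (-2.67 ± 0.54, adjusted P = 0.0473). Irf9, the DNA-binding part of the interferon-activated complex ISGF3, fell by 1.32 (SE 0.23, adjusted P = 0.0237). Rsad2 lost its call without mouse 67, 97, 79, 5, 6, 21, 7 or 9 (adjusted P up to 0.136), and Irf9 without mouse 97, 79, 5, 6, 21, 7 or 9 (adjusted P up to 0.0937). Ifit3, a further antiviral gene, had 152 ± 190 CPM at 24 hours and 23.5 ± 8.77 CPM at 2 weeks and did not pass (-2.72 ± 0.60, adjusted P = 0.0599, edgeR).

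Among genes of IL-6 family and STAT3 signalling, the feedback inhibitor Socs3 was lower at 2 weeks. Socs3 had 15.8, 16.0, 36.3, 26.4 and 10.6 CPM at 24 hours against 0.504, 1.35 and 4.40 CPM at 2 weeks (-3.54 ± 0.52, adjusted P = 0.0110), with no overlap. It was the only member of 15 tested that passed, in a list with a median of -1.01. Lower at an unadjusted P under 0.05 were 9 members, where 7.52% of all genes were. Stat3 itself (-1.36 ± 0.34, adjusted P = 0.0976) and Osmr, the oncostatin M receptor (-0.93 ± 0.30, adjusted P = 0.186), did not pass. Complement genes had a list median of -0.26. C5ar1, the receptor of the anaphylatoxin C5a, fell by 2.74 (SE 0.44, adjusted P = 0.0179), and lost its call without mouse 97, 79, 5, 21 or 9 (adjusted P up to 0.0743). C3, the central component, had 55.1 ± 52.1 CPM at 24 hours and 4.38 ± 4.42 CPM at 2 weeks (-3.62 ± 0.80, adjusted P = 0.0599, and adjusted P = 0.0365 without mice 8 and 6, edgeR). With the library set as a block, and within set 3, the complement list had 0 calls. C1qa, made by microglia, had -0.21 ± 0.67, adjusted P = 0.893.

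Matrix genes split by direction. Of 21 tested, 5 that act in proteolysis and wound repair fell and Hapln1, of the perineuronal net, rose (list median -0.44, and -0.02 without mice 8 and 6). Plaur, the urokinase receptor, had 3.52, 2.37, 2.74, 2.82 and 2.65 CPM at 24 hours against 0.315, 0.483 and 0.684 CPM at 2 weeks (-2.46 ± 0.34, adjusted P = 0.00941). Its groups did not overlap, and it passed in every leave-one-out fit. Beside Timp1, Thbs1, a thrombospondin, fell by 1.90 (SE 0.31, adjusted P = 0.0179), and Adamts1, a secreted protease, fell by 2.31 (SE 0.46, adjusted P = 0.0445). Thbs1 lost its call without mouse 97, 79, 5, 7 or 9 (adjusted P up to 0.0690) and Adamts1 without mouse 67, 97, 79, 5, 6, 21, 7 or 9 (adjusted P up to 0.132). PBS libraries held Adamts1 at 22.6 to 41.2 CPM in set 4 and 9.43 to 16.4 CPM in set 5. Tnn, a tenascin, which no list held, had 3.96, 5.34, 12.6, 9.90 and 8.79 CPM at 24 hours against 0.246, 0.618 and 1.03 CPM at 2 weeks (-3.80 ± 0.42, adjusted P = 0.00110). Acan, which encodes the aggrecan of perineuronal nets and was named after its value was seen, fell by 1.78 (SE 0.34, adjusted P = 0.0382), with overlap between the groups, and lost its call without mouse 67, 97, 79, 5, 6, 21, 7 or 9 (adjusted P up to 0.132).

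Immediate early genes leaned to lower values at 2 weeks, and few passed. Of 25 tested, Ier3 (-2.24 ± 0.37, adjusted P = 0.0195) and Myc (-1.61 ± 0.29, adjusted P = 0.0243) fell, and the median was -0.97 (-0.36 within set 3). At an unadjusted P under 0.05, 12 were lower and 0 higher, where 7.52% of all genes were lower and 7.50% higher. Ier3 lost its call without mouse 97, 79, 5, 21 or 7 (adjusted P up to 0.0701) and Myc without mouse 97, 79, 5, 6, 21, 7 or 9 (adjusted P up to 0.107). In PBS mice Myc stood at 4.32 to 6.04 CPM in set 4 and 1.18 to 3.69 CPM in set 5. Fos had 23.0 ± 10.6 CPM at 24 hours and 8.54 ± 2.29 CPM at 2 weeks (-1.47 ± 0.31, adjusted P = 0.0519, edgeR). Npas4, a transcription factor that neuronal activity induces, had 16.9 ± 10.3 CPM at 24 hours and 4.49 ± 2.48 CPM at 2 weeks (-1.96 ± 0.46, adjusted P = 0.0738, edgeR). Both passed without mice 8 and 6 (adjusted P = 0.0440 and 0.0424), where the list had 6 calls, all lower. That fit was chosen after seeing the data. With the library set as a block, and within set 3, the list had 0 calls. Egr1 had -0.27 ± 0.27, adjusted P = 0.632.

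Among effectors that activity induces, Trib1, a pseudokinase, was the only member of 22 that passed, with 17.6, 21.4, 44.1, 60.8 and 23.4 CPM at 24 hours against 5.85, 8.49 and 10.9 CPM at 2 weeks (-2.03 ± 0.32, adjusted P = 0.0165). Its call was lost without mouse 97, 79, 5, 21 or 7 (adjusted P up to 0.0597). Bdnf, a neurotrophin, had -0.31 ± 0.51, adjusted P = 0.782, and Inhba, which encodes the activin A subunit, had 222 ± 305 CPM at 24 hours and 41.4 ± 34.1 CPM at 2 weeks (-2.45 ± 0.93, adjusted P = 0.256, edgeR). Hspa1a, the inducible HSP70 chaperone, had 106, 13.1, 37.4, 142 and 12.8 CPM at 24 hours against 4.04, 6.16 and 12.3 CPM at 2 weeks (-3.20 ± 0.61, adjusted P = 0.0372). It was the only call among 17 heat shock genes and was lost without mouse 67, 97, 79, 5, 6, 21, 7 or 9 (adjusted P up to 0.112). PBS libraries, without IAKA, held Hspa1a at 18.1 to 24.1 CPM in set 4 and 0.923 to 4.23 CPM in set 5.

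**Figure D3:**
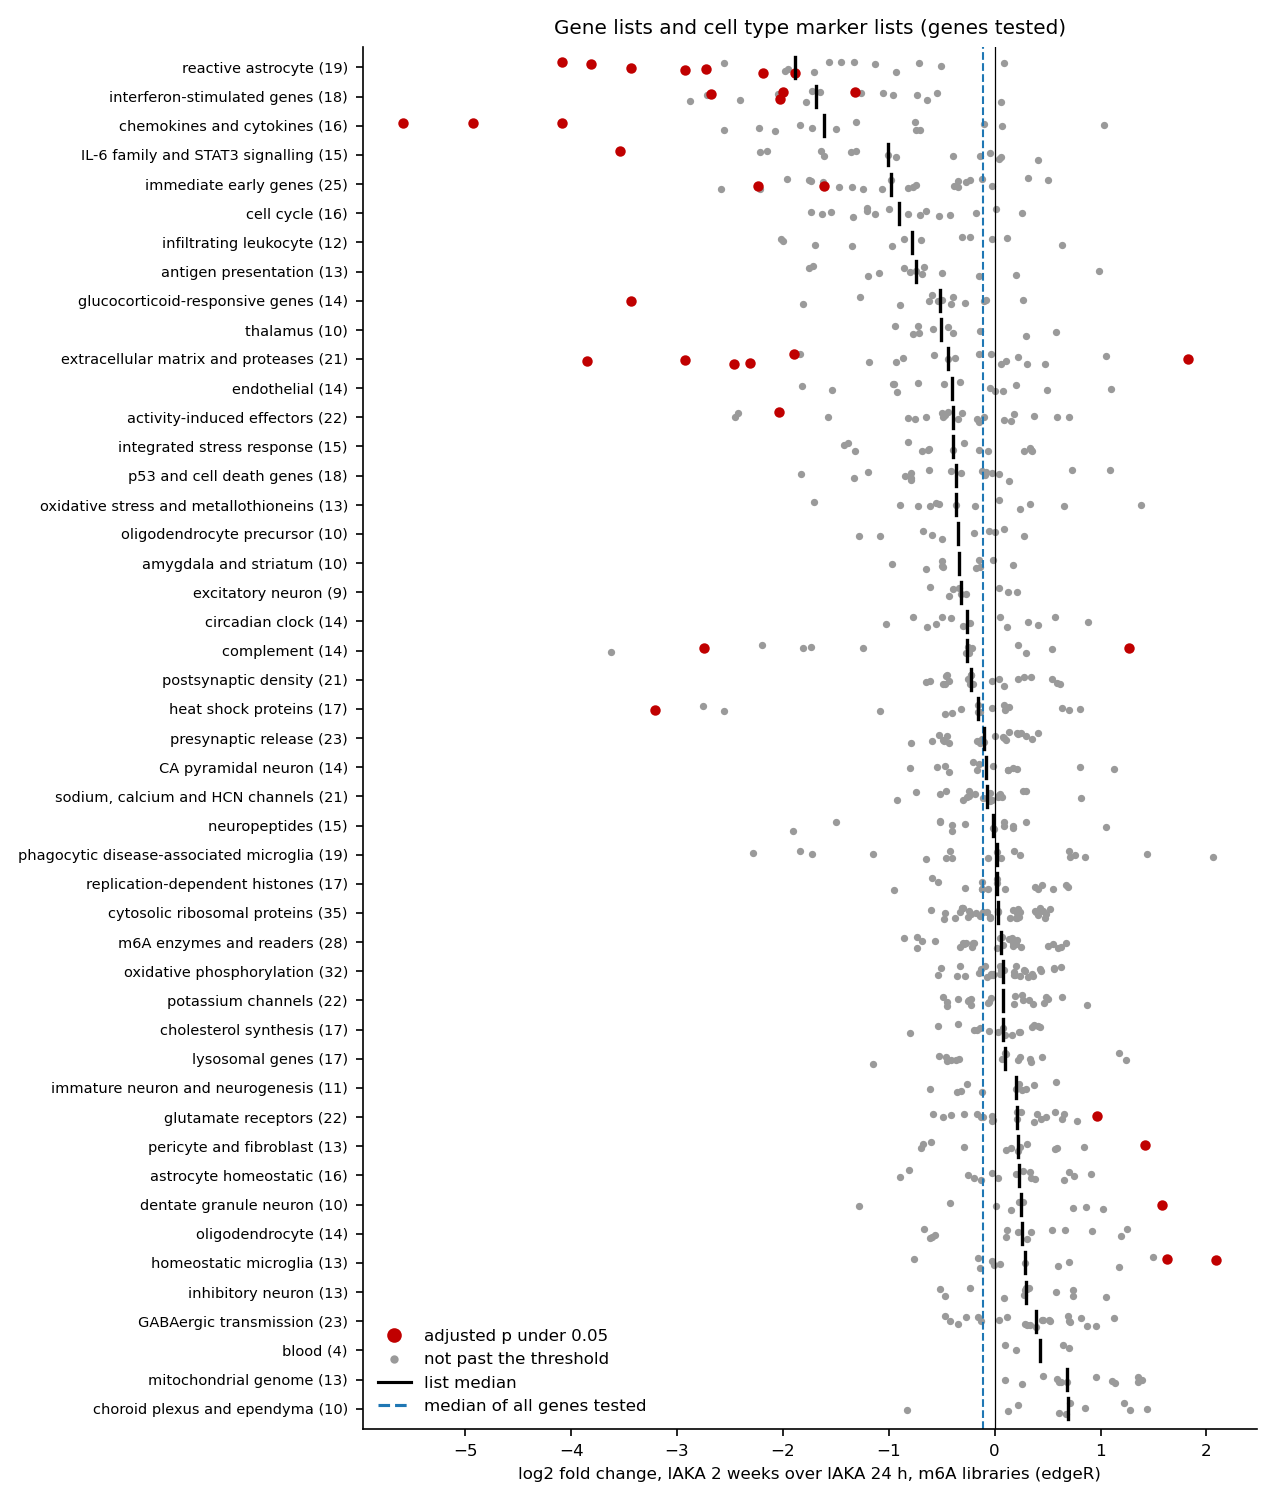
Log2 fold change (x axis, 2 weeks over 24 hours, IAKA m6A libraries) of every tested member of each list (1 line per list on the y axis), with black bars for list medians, red points for members past an adjusted P under 0.05, grey points for the others and a dashed line for the median of all genes tested (-0.11). Reactive astrocyte, interferon and chemokine lists have the lowest medians, -1.88, -1.68 and -1.61.

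The named genes that were higher at 2 weeks were led by a microglial receptor. P2ry12, the ADP receptor that guides microglial processes, had 6.59, 5.93, 5.41, 12.03 and 7.75 CPM at 24 hours against 21.1, 28.4 and 51.3 CPM at 2 weeks (2.09 ± 0.30, adjusted P = 0.0102). Siglech, a sialic acid-binding lectin of microglia, had 5.27, 8.90, 8.62, 11.97 and 16.5 CPM at 24 hours against 24.0, 30.1 and 45.3 CPM at 2 weeks (1.63 ± 0.28, adjusted P = 0.0219). In PBS mice P2ry12 stood at 17.7 to 20.2 CPM at 24 hours and 19.04 to 57.4 CPM at 2 weeks, and Siglech at 16.6 to 19.8 CPM and 14.0 to 23.8 CPM. All 5 IAKA libraries of 24 hours thus lay below all 8 PBS libraries for P2ry12, and 4 of the 5 did for Siglech, and neither gene separated PBS sets 4 and 5. IAKA against PBS at 24 hours did not pass for P2ry12 (-1.29 ± 0.35, adjusted P = 0.215) or Siglech (-0.82 ± 0.30, adjusted P = 0.469, edgeR). The difference between the IAKA and PBS shifts did not pass for either (adjusted P = 0.9998, edgeR). P2ry12 passed in every leave-one-out fit, and Siglech lost its call without mouse 97, 79, 5, 6, 21 or 9 (adjusted P up to 0.0919). They were the only members of 13 homeostatic microglia markers that passed (list median 0.29). Tmem119 had -0.77 ± 0.55, adjusted P = 0.514 and the fractalkine receptor Cx3cr1 0.00 ± 0.30, adjusted P = 0.997. Of 19 markers of phagocytic, disease-associated microglia none passed (median 0.02). Clec7a, a beta-glucan receptor of this state, had 2.89 ± 2.15 CPM at 24 hours and 8.53 ± 3.99 CPM at 2 weeks (1.44 ± 0.49, adjusted P = 0.203, edgeR), and Cst7, a cystatin, had 2.06 ± 0.79, adjusted P = 0.259.

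Further named genes that were higher at 2 weeks were Hapln1, Ptn and Slc39a12. Hapln1, the link protein of hyaluronan and aggrecan, had 11.9, 8.31, 5.47, 6.34 and 11.6 CPM at 24 hours against 16.1, 32.4 and 39.0 CPM at 2 weeks (1.83 ± 0.28, adjusted P = 0.0124). Ptn, the secreted growth factor pleiotrophin, had 222, 202, 144, 120 and 172 CPM at 24 hours against 258, 483 and 520 CPM at 2 weeks (1.38 ± 0.24, adjusted P = 0.0237). Slc39a12, a zinc importer, had 8.35, 7.72, 4.86, 3.27 and 5.77 CPM at 24 hours against 12.9, 17.0 and 23.9 CPM at 2 weeks (1.65 ± 0.29, adjusted P = 0.0231). In all 3 genes mouse 42 was the lowest library of 2 weeks. It lay above every library of 24 hours, which the rule for the largest rises required. PBS libraries differed by set for Hapln1, at 12.7 to 19.2 CPM in set 4 and 25.1 to 29.4 CPM in set 5, and for Ptn, at 218 to 258 CPM in set 4 and 344.8 to 450 CPM in set 5. The PBS sets overlapped for Slc39a12. Hapln1 lost its call without mouse 79 or 9 (adjusted P up to 0.0620), Ptn without mouse 97, 79, 5, 6, 21, 7 or 9 (adjusted P up to 0.0863) and Slc39a12 without mouse 97, 79, 5, 21, 7 or 9 (adjusted P up to 0.0845).

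Tmem47, a membrane protein of cell junctions, passed in every leave-one-out fit, with 31.6, 38.6, 31.9, 42.2 and 35.4 CPM at 24 hours against 63.3, 112 and 154 CPM at 2 weeks (1.597 ± 0.23, adjusted P = 0.0102). Its log2 fold change within set 3 was 1.68 ± 0.40, and PBS sets 4 and 5 overlapped. Rida, a deaminase of reactive imines, had 21.5, 14.8, 16.2, 19.1 and 22.8 CPM at 24 hours against 31.4, 56.5 and 83.4 CPM at 2 weeks (1.56 ± 0.24, adjusted P = 0.0127), and lost its call without mouse 97, 79 or 9 (adjusted P up to 0.0559). Rgs5, a regulator of G protein signalling in pericytes, had 36.9, 43.3, 45.9, 34.0 and 24.1 CPM at 24 hours against 59.7, 101 and 153 CPM at 2 weeks (1.42 ± 0.26, adjusted P = 0.0314), and lost its call without mouse 67, 97, 79, 5, 6, 21, 7 or 9 (adjusted P up to 0.104). It was the only call among 13 pericyte and fibroblast markers, of which the pericyte receptor Pdgfrb had -0.70 ± 0.50, adjusted P = 0.509. Lix1 and Bmpr1b, a BMP receptor, rose by 1.25 (SE 0.21, adjusted P = 0.0219) and 1.13 (SE 0.22, adjusted P = 0.0414). Their calls were lost in 8 and 9 of the 11 leave-one-out fits, with adjusted P up to 0.0937 and 0.125. Among the named higher genes, Hapln1, Rida, Rgs5, Ptn and Bmpr1b had all PBS libraries of set 5 above all of set 4. Rida stood at 18.3 to 25.8 CPM in set 4 and 37.7 to 88.1 CPM in set 5, Rgs5 at 42.2 to 50.4 CPM in set 4 and 67.2 to 95.8 CPM in set 5, and Bmpr1b at 17.4 to 21.7 CPM in set 4 and 30.5 to 58.9 CPM in set 5.

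**Figure D4:**
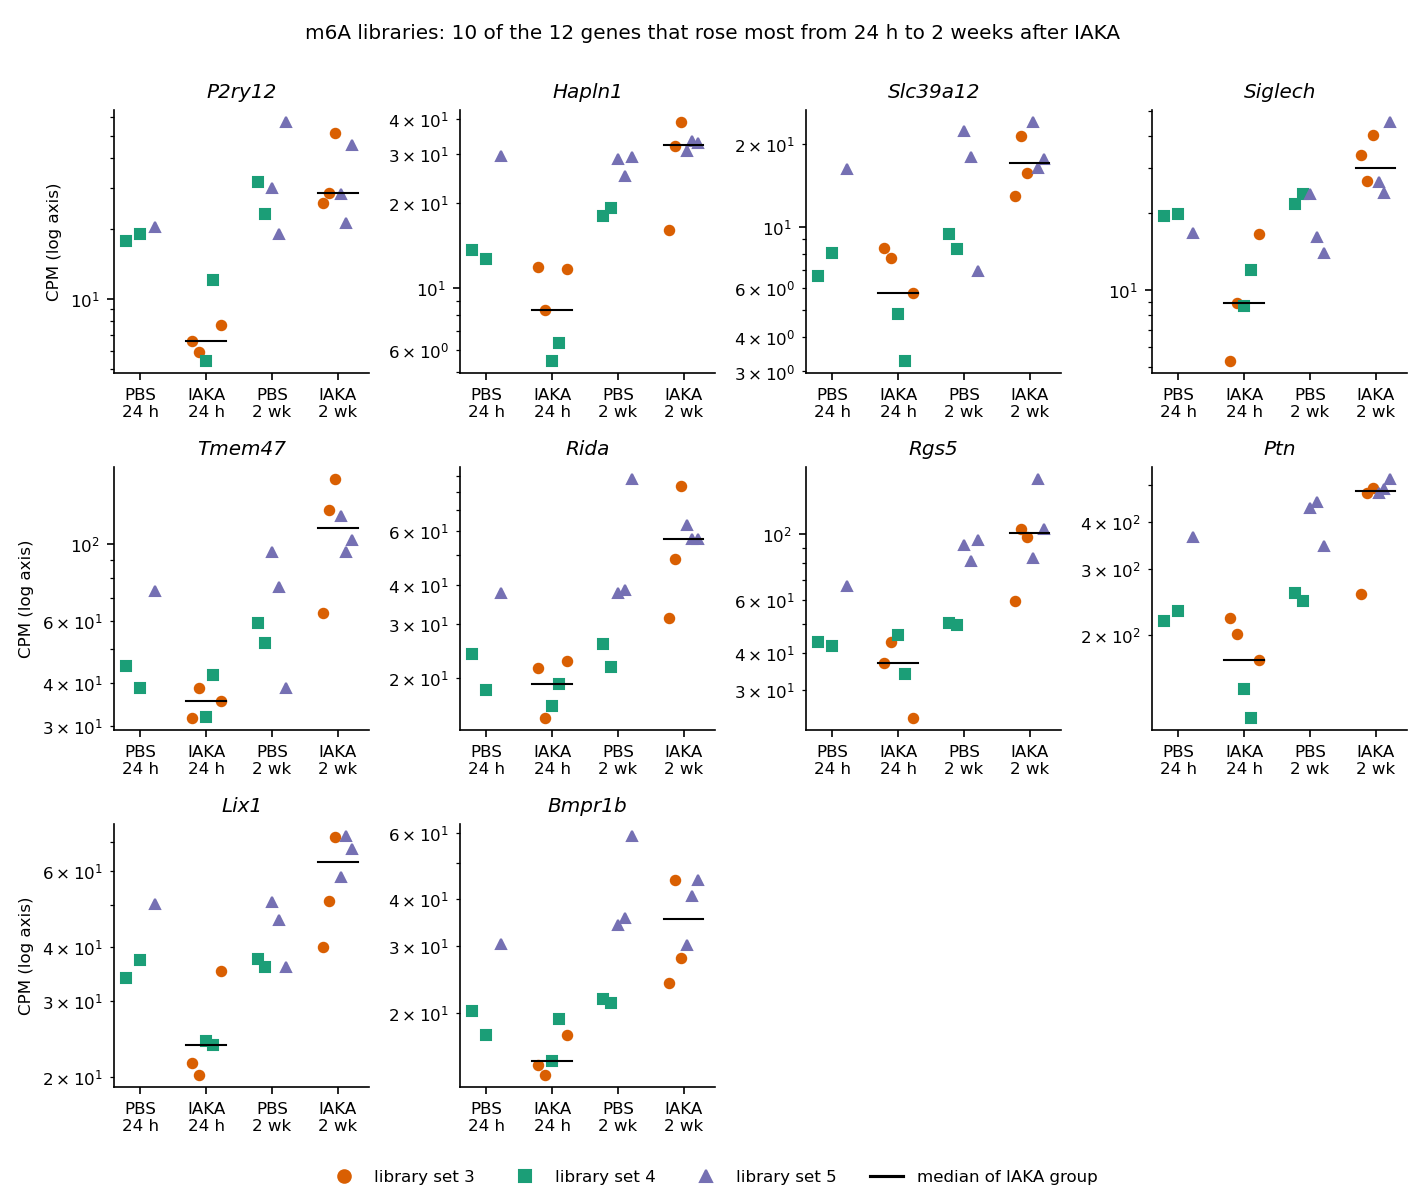
CPM (log y axis) of 10 of the 12 named higher genes with the largest fold changes, 1 panel per gene, in each m6A library by treatment and time, drawn as in the plot of lower genes. In every panel all 6 IAKA libraries of 2 weeks lie above all 5 of 24 hours, because these genes were picked among those free of overlap. For Ptn the PBS libraries of set 5 lie above those of set 4.

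Among neuronal genes, few passed. Grik2, the kainate receptor subunit GluK2, was the only call among 22 glutamate receptor genes, with 57.1, 74.8, 71.0, 66.0 and 69.0 CPM at 24 hours against 99.8, 140 and 169 CPM at 2 weeks (0.96 ± 0.19, adjusted P = 0.0403). PBS libraries stood at 82.4 to 90.5 CPM in set 4 and 143 to 224 CPM in set 5, and the call was lost without mouse 67, 97, 79, 5, 6, 21, 7 or 9 (adjusted P up to 0.122). The AMPA receptor subunit Gria1 (0.21 ± 0.27, adjusted P = 0.717) and the NMDA receptor subunit Grin2a (0.44 ± 0.23, adjusted P = 0.383) did not pass. The 23 GABAergic genes had no call and a median of 0.39, with 8 members higher at an unadjusted P under 0.05, where 7.50% of all genes were. Gad1 and Gad2, which make GABA, had 0.29 ± 0.32, adjusted P = 0.665, and 0.31 ± 0.31, adjusted P = 0.633. Trpc6, a cation channel and dentate granule marker, rose by 1.58 (SE 0.31, adjusted P = 0.0426) with overlap, as mouse 8 had 30.7 CPM and mouse 42 had 27.1 CPM. It was the only call among 10 dentate granule markers and was lost without mouse 67, 98, 97, 79, 5, 6, 21, 7 or 9 (adjusted P up to 0.136). PBS libraries held Trpc6 at 24.6 to 39.5 CPM in set 4 and 49.5 to 57.0 CPM in set 5. Potassium channels (22 tested), sodium, calcium and HCN channels (21), presynaptic release (23) and postsynaptic density genes (21) had no call, at medians of 0.08, -0.07, -0.10 and -0.22.

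No gene of the m6A machinery passed in these m6A libraries. Of 30 writers, erasers, readers and cofactors listed, 28 were tested, with a median of 0.06 where all genes had -0.11. Mettl3, the catalytic writer, had 45.3 ± 44.9 CPM at 24 hours and 30.3 ± 11.2 CPM at 2 weeks (-0.57 ± 0.46, adjusted P = 0.560, edgeR). Its partner Mettl14 had 40.8 ± 3.84 CPM at 24 hours and 41.6 ± 4.00 CPM at 2 weeks (0.02 ± 0.16, adjusted P = 0.956, edgeR), and the cofactor Wtap 0.17 ± 0.24, adjusted P = 0.735. The erasers Fto and Alkbh5 had -0.21 ± 0.23, adjusted P = 0.675, and 0.21 ± 0.22, adjusted P = 0.651. The lowest adjusted P of the list belonged to Fxr1, an RNA-binding protein of the fragile X family, with 94.0 ± 15.1 CPM at 24 hours and 152 ± 39.2 CPM at 2 weeks (0.67 ± 0.22, adjusted P = 0.200, edgeR). The YTH readers ranged from -0.30 (Ythdf2) to 0.60 (Ythdc2), and Ythdc1, the nuclear reader, had 0.55 ± 0.25, adjusted P = 0.316.

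Other cell types and processes were read through lists in which no member, or 1 already named, passed. Oligodendrocyte markers (14 tested) had no call, and their summed CPM did not overlap, at 1935 to 2965 at 24 hours and 3139 to 4505 at 2 weeks, and PBS libraries spanned 1987 to 4449 and 2259 to 4507. Summed CPM of the pericyte and fibroblast, interferon and chemokine lists did not overlap either. Those of reactive astrocytes did, at 826 to 3107 at 24 hours and 302 to 3218 at 2 weeks. Choroid plexus and ependyma markers (10 tested) spanned 65.1 to 1184 CPM at 24 hours and 629 to 3742 CPM at 2 weeks, and Ttr, transthyretin, had 1.44 ± 0.80, adjusted P = 0.403. Their part in the results above was not tested. Markers of endothelium (14), excitatory neurons (9), inhibitory neurons (13), CA pyramidal neurons (14), immature neurons (11), oligodendrocyte precursors (10), blood (4), thalamus (10), and amygdala and striatum (10) had no call, with medians from -0.51 to 0.43. As a check of the labelled tissue, Prox1, a marker of dentate granule neurons, stood at 66.0 ± 43.5 CPM at 24 hours and 80.7 ± 31.9 CPM at 2 weeks and Slc17a7, of excitatory neurons, at 323 ± 180 CPM at 24 hours and 263 ± 130 CPM at 2 weeks. The 13 protein genes of the mitochondrial genome had no call and a median of 0.68, and without mice 8 and 6 a median of 1.67 with 4 calls, all higher (mt-Nd3, mt-Nd4l, mt-Atp6 and mt-Atp8, named after their values were seen). The median of the same 13 genes had the other sign in input of IAKA mice (-0.97) and in m6A libraries of PBS mice (-0.135). Cell cycle genes (16) had a median of -0.91, and of -0.06 without mouse 8. Ribosomal proteins (35), oxidative phosphorylation (32), histones (17), cholesterol synthesis (17), lysosomal genes (17), the integrated stress response (15), oxidative stress and metallothioneins (13), p53 and cell death genes (18), antigen presentation (13), neuropeptides (15) and clock genes (14) had no call, with medians from -0.74 to 0.10. Of 14 glucocorticoid-responsive genes only Lcn2 passed (median -0.52).

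Whether a shift was larger after IAKA than after PBS was tested as the difference between both shifts over all 19 m6A libraries. Of 17440 genes 1 passed, 0.00573%: Tm4sf1. PBS mice had 3.83 to 5.64 CPM of it at 24 hours and 5.46 to 10.3 CPM at 2 weeks, a log2 fold change of 0.71 ± 0.25, so the shifts differed by -2.89 ± 0.32 (adjusted P = 0.000355, edgeR). For Ccl2 the difference was -3.60 ± 1.05 (adjusted P = 0.9998) and for Socs3 -3.22 ± 0.95 (adjusted P = 0.9998), neither past the threshold. Over the 47 lower genes the PBS shift ranged from -3.04 to 1.203 with a median of -0.38, beside -2.49 after IAKA. Over the 32 higher genes the PBS median was 0.335, beside 1.38. Both sets were picked on their shift after IAKA, which makes the IAKA medians large, so these medians do not test the difference. PBS mouse 71 of 24 hours held the highest PBS value for Ccl2 (1.35 CPM), Msr1 (5.17), Ptx3 (7.97), Lcn2 (9.73) and Slfn4 (12.6). A difference that misses the threshold does not show that the shifts were alike.

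Total RNA of IAKA mice gave the same contrast without the antibody. In the 10 input libraries 19 of 13720 genes passed, 0.138% (8 higher and 11 lower at 2 weeks). Of the 47 genes lower in the m6A libraries, 26 could be tested in input, all 26 had a negative log2 fold change there (median -1.64), and 7 passed. Of the 32 higher genes 31 could be tested, 30 had a positive value (median 0.83), and 5 passed. m6A and input libraries come from the same mice, mouse 79 had no input library here and the input library of mouse 97 held 3171 counts. Without that library of mouse 97, 20 genes passed in input, 9 of them among the 19. The log2 fold changes in input and in m6A libraries were -2.20 and -2.19 for Tm4sf1, -3.54 and -3.43 for Lcn2, 1.84 and 1.63 for Siglech, and 1.74 and 2.09 for P2ry12. Ccl2, Ccl12, Socs3 and Cxcl10 did not pass the filter on low counts in input.

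The change of m6A over input was tested as the difference between both shifts over 21 libraries. edgeR called 0 of 15982 genes (0.0%), and 290 had an unadjusted P under 0.05. By DESeq2 3 genes passed and by voom 4. The differences were -0.02 ± 0.29 on the log2 scale for Tm4sf1, 0.13 ± 0.97 for Lcn2, -0.27 ± 0.36 for Siglech, 0.32 ± 0.42 for P2ry12 and 0.36 ± 0.29 for Grik2. They were 0.74 ± 0.36 for Hapln1, 0.59 ± 0.28 for Lix1 and -1.01 ± 0.62 for Adamts1, and each gene named here was at an adjusted P of 0.9999 (edgeR). With the mouse as a replicate block 4 genes passed, Gm10222, Gm7416, Gm8430 and Rps16-ps2, named after their values were seen. They are predicted genes or pseudogenes, whose reads may be shared with near-identical copies.

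**Figure D5:**
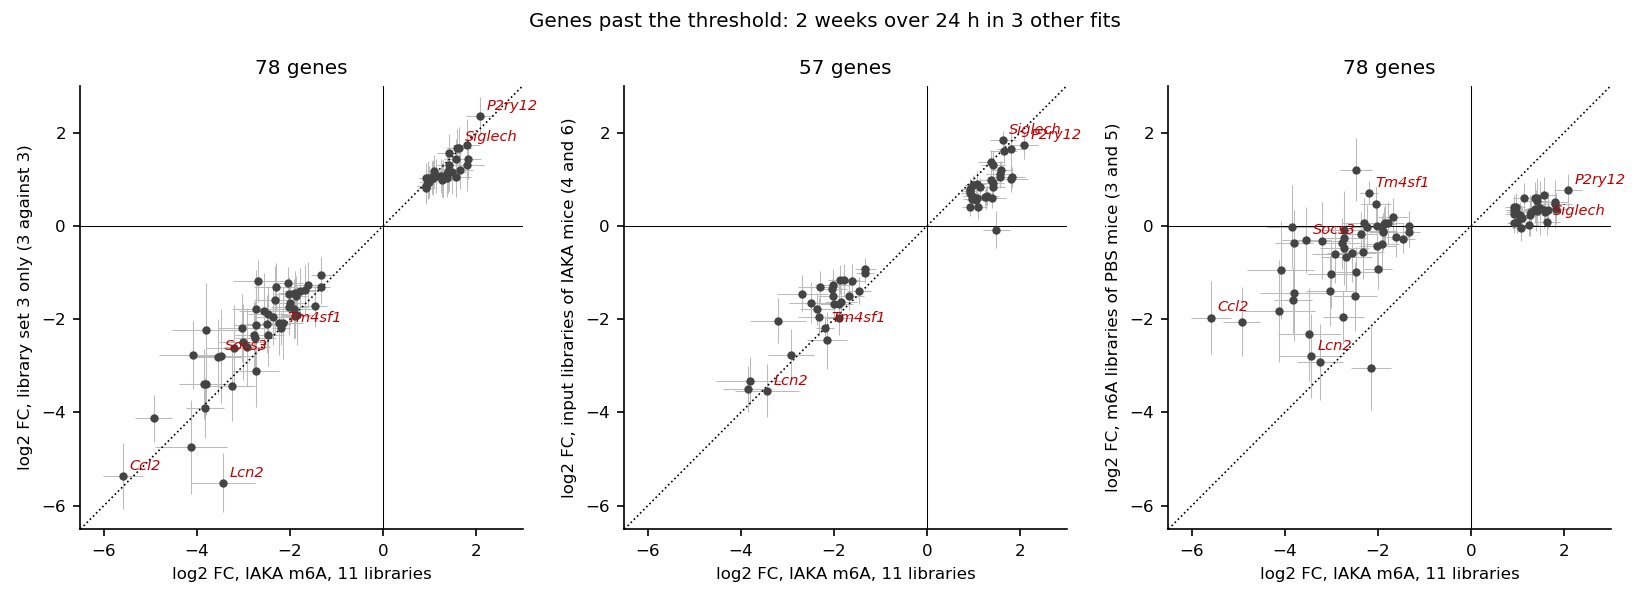
Log2 fold change (2 weeks over 24 hours) of genes past the threshold, with the 11 IAKA m6A libraries on the x axis and, on the y axes, the 6 libraries of set 3, the IAKA input libraries and the PBS m6A libraries. Bars are SE, the dotted diagonal marks equal values, and Gm5940 is left out. The genes were picked on their x axis values. The libraries of set 3 are also part of the x axis, and in PBS mice the lower genes scatter around a median of -0.38.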

How the data were processed

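Per the labels, total RNA of the hippocampus was extracted with Trizol, 5 ug of it went into an m6A immunoprecipitation, and libraries were made with a stranded total RNA kit. The authors deposited raw counts of reads per gene, with 4 lane columns per library, and their processing notes name the build mm10. For the aligner, the counting tool and its strand setting, a name is not given in the sources used here. Lane columns were summed (140 used, while 8 that match no sample here were not), over 32544 genes in 35 libraries. Nothing in the labels ties a number to a shared litter or batch, and m6A and input libraries of a mouse were paired by its number (deviations from the group means correlated at 0.031 to 0.63).

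Genes passing filterByExpr were tested with edgeR 4.0.16 (TMM, robust quasi-likelihood test, R 4.3.3), with P values adjusted by Benjamini-Hochberg over all genes tested and a threshold of 0.05. DESeq2 1.42.0 and voom (limma 3.58.1) were alternatives, as were other filters, scaling by library size, the library set as a block, set 3 alone and leaving out libraries. The tests were run on simulated data first. CPM are per 1000000 counts of the TMM-scaled library size, set over all 19 m6A libraries. Named genes were the 12 with the largest fold change in each direction among those called, free of overlap and with a mean of at least 5 CPM at the higher time, plus the first 3 members and up to 4 called members of each of 29 function and 19 marker lists. Members, lists and rules were chosen with earlier results of these data known. A few named genes are not reported here, Virma was not analysed here, and Cd3e and Itgax did not pass the filter.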

Additional observations from a re-analysis of the deposited data

Results flagged for a closer look

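Some values lay far from the rest of their group by a gap test that chance meets in about 1 in 20 groups, applied to 80 groups. At 2 weeks, mouse 42 was the low library for Hapln1 (16.1 CPM) and Ptn (258 CPM). At 24 hours, mouse 98 was the low library for C5ar1 (1.19 CPM, under the limit that a count of 0 allows in that library), and mouse 79 the high library for Gbp2 (53.8 CPM) and Rsad2 (54.4 CPM). Mouse 8 stood out at 24 hours for the share of mitochondrial counts (16.4%), and mouse 6 at 2 weeks for the number of genes with a count (27003). Tm4sf1 was picked out because its shift after IAKA differed from the shift after PBS, by -2.89 on the log2 scale (edgeR, adjusted P = 0.000355).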

How the results depend on the processing

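The 79 genes of the comparison became 584 with DESeq2 (292 in each direction, 76 of the 79 among them), 6216 with voom, 157 in a fit of all 19 m6A libraries, 161 without mice 8 and 6, 124 without mice 67 and 98, 9 at an adjusted P under 0.01, 4 with the library set as a block, 0 within set 3 (edgeR, 480 at an unadjusted P under 0.05) and 2 within set 3 without mice 8 and 6 (Lcn2 and Hist1h2al, named after their values were seen). Leaving out 1 library gave 16 to 496. Other filters, scaling by library size (75 genes, 21 higher and 54 lower), removal of mitochondrial and ribosomal RNA genes and a fold limit kept the count within 1.5 times. The fits without mice 8 and 6, without mice 67 and 98 and within set 3 without mice 8 and 6 were chosen after seeing the data. No named gene changed direction past a threshold under these alternatives. Of the 40 named genes that passed, 40 passed with voom, 39 with DESeq2 (the other had no adjusted P), 4 with the set as a block and 12 (without mouse 79) to 40 with a library left out. The median of all genes moved from -0.11 to -0.18 with library size scaling and to 0.00 without mice 8 and 6. The difference between the IAKA and PBS shifts gave 5 genes with DESeq2 (Fos, Npas4, Shox2, Tm4sf1 and Trib1), 62 with voom and 2 with the set as a block (Tm4sf1 and Trib1). Input gave 383 genes with voom, 172 with no filter, 31 with a mean of at least 10 counts and 2 to 47 with a library left out (47 without mouse 8, 4 without mouse 5, 7 without mouse 7, and 2 without mouse 21, 9 or 6). m6A over input gave 3 genes with DESeq2 (Gm15500, Gm28438 and Gm8430), 4 with voom (Fam199x, Gm13509, Gm2223 and Hint3) and 4 with the mouse as a replicate block, which pairs the libraries of a mouse. The first principal component gave an exact permutation P of 0.0238 (without mouse 8) to 0.829 with a library left out. The second gave 0.00476 (without mouse 98 or 97) to 0.924 (without mouse 67). The cause of these moves was not tested. With the library set as a block among the m6A libraries, m6A over input stayed at 0 genes (edgeR, 290 at an unadjusted P under 0.05). That block was not run for input, whose columns carry no prefix. In mice 67 and 98, depth limits genes under 1.32 and 1.78 CPM, the limit that a count of 0 allows.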
